A study of Mus musculus with 15 samples.

Results

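Expression of the receptor for leukemia inhibitory factor (LIF) and of the related interleukin-6 (IL-6) family receptors was followed in NMuMG cells, an immortalized line of normal mouse mammary gland epithelium, and in cell lines derived from it. The group was chosen by gene name and held 8 genes, Lifr, Il6st, Osmr, Lif, Il6ra, Il11ra1, Jak1 and Jak2. All 8 were listed in both deposited RNA-Seq datasets, among 13893 genes in the first and 15023 in the second. The first, the knockout dataset, held 11 libraries, each from a separate line and each carrying the shRNA knockdown of PCBP1, the controls included. They were 4 shPCBP1 lines of wild type genotype (the unaltered line and CT clones 1 to 3), 3 FAM3C -/- clones (FAM3C KO), 3 LIFR -/- clones (LIFR KO) and 1 line in which FAM3C and LIFR were both knocked out (double KO). The second, the knockdown dataset, held 2 libraries of NMuMG cells labelled as having had no treatment, which the study calls shSCR, and 2 libraries of shPCBP1 cells. Each knockout line was grown from a discrete colony of electroporated cells, so that a difference between clones and a difference due to the knockout share the same libraries. Nothing states that the replicates of the knockdown dataset were separate cultures, and p-values then measure only the spread between these samples. The levels are deposited CPM (counts of a gene scaled to the size of its library), and a mean is given with its SD over libraries.

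LIF and its relatives signal through receptors on the cell surface that share the chain gp130, the product of Il6st. LIF binds a pair made of gp130 and the LIF receptor (Lifr), oncostatin M a pair made of gp130 and the oncostatin M receptor (Osmr), and IL-6 and IL-11 first bind their own receptors (Il6ra, Il11ra1) and then gp130. Kinases of the JAK family, among them Jak1 and Jak2, are bound to the inner part of these chains and phosphorylate the transcription factor STAT3, which enters the nucleus and raises, among other genes, Socs3, an inhibitor of the same pathway. In the mammary gland, LIF and STAT3 are known for their part in the loss of milk-producing cells after weaning.

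The LIFR KO lines were made with pairs of Cas9 guides to the coding sequence of Lifr, and 3 of the 4 guides listed by the study could be placed in the transcript Lifr-201 (GENCODE M21). They are shown because the exon 2 pair marks how little of the transcript its deletion removes. Lower case letters are the 20 bases of the guide and capitals the adjoining PAM, as read from the transcript, both 5′ to 3′.
Exon 2 guide 1, minus strand, chr15:7154439-7154458: ttattgtctaccatccacgaTGG
Exon 2 guide 2, plus strand, chr15:7154514-7154533: catctgacgatgcatgcaaaCGG
Exon 6 guide 1, plus strand, chr15:7166908-7166927: gtaaagataccgttcagcacTGG
The coordinates are those of GRCm38, and all 3 sites lie in coding sequence. The predicted cuts of the exon 2 pair are 89 bases apart, which is 2.15% of the 4143 bases of Lifr-201, a transcript of 20 exons. The paper names a somewhat longer fragment as the one its guide pairs were selected to excise. A level summed over the gene hardly reads the loss of these bases and does not check the knockout. Any effect of the deletion on the amount of transcript was not tested. Which pair made which clone is not given in the sources used here.

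Lifr (ENSMUSG00000054263) lies on the plus strand of chromosome 15 of GRCm38 from 7090614 to 7197489, and Osmr (ENSMUSG00000022146) on the minus strand of the same chromosome from 6813577 to 6874969, with 215644 bases between them. The promoter windows of both are shown because neither gene had reads in the control cells of the knockdown dataset. RefSeq (GRCm38.p6) gives Lifr a pair of transcript starts and hence 2 windows, each from 250 bases before the start to 50 after it, printed 5′ to 3′ along the gene with E-boxes (CANNTG, read on both strands since it is its own reverse complement) in capitals.
Lifr, upstream start, chr15:7129322-7129621, plus strand: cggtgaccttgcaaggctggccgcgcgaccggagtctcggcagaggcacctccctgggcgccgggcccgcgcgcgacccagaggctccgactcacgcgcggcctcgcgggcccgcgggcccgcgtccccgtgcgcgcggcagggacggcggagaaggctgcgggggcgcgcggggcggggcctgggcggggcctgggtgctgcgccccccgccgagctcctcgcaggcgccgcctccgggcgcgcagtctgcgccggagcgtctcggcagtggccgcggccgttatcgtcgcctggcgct
Lifr, downstream start, chr15:7140292-7140591, plus strand: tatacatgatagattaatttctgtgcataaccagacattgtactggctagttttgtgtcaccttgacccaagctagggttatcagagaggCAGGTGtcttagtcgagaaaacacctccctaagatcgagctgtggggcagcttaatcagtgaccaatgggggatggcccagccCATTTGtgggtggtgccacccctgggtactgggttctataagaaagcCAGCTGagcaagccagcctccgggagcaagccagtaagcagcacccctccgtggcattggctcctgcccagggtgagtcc
Osmr, chr15:6874264-6874563, minus strand: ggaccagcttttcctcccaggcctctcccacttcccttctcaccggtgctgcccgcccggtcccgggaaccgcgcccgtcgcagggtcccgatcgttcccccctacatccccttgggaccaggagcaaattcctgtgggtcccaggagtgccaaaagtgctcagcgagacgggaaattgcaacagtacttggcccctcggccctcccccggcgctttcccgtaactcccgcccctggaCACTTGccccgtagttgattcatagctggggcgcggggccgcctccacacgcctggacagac
The upstream window of Lifr holds no E-box and 81.3% G or C, the downstream window 3 E-boxes and 53.3% G or C, and the window of Osmr 1 E-box and 66.0% G or C. An E-box stands in 72.3% of the 32851 promoter windows of this table. The STAT-type palindrome TTCNNNGAA, which stands in 8.30% of them, was found in none of the windows of the 8 genes, which says only that these letters are absent there.

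Of the 8 genes, 7 passed the filter on low values (a mean of at least 0.5 CPM over the fitted libraries) in each dataset, and Osmr did not. Fold changes and tests come from limma fits of log2(CPM + 0.1), where the changes of low genes come out too small, and a gene was called at a Benjamini-Hochberg adjusted p under 0.07 over all genes tested. The implied totals were 16031859 to 46901675 reads in the knockout dataset and 53016576 to 56500241 in the knockdown dataset, so that 1 read was worth 0.0213 to 0.0624 CPM and 0.0177 to 0.0189 CPM. LIFR KO clones 2 and 3 stood apart from the other 8 libraries, as did the double KO. Spearman's correlation across 12603 genes between GC content and the difference from the shPCBP1 mean was -0.76, -0.74 and -0.70 in these 3 and between -0.29 and 0.24 in the others, and mitochondrial mRNA made up 7.16% to 8.58% of their values against 3.14% to 4.06%. No shPCBP1 library shared this, so this shift and the knockout cannot be told apart. Some results of LIFR KO are given also for clone 1 alone, and the others for the 3 clones together. With clone 1 alone the LIFR KO arm is 1 library with no spread of its own, which is assumed to vary like the libraries of the other groups, so its p-values have no replicate check of LIFR KO. Of the epithelial markers, Cdh1 (E-cadherin) stood at 246 to 362 CPM in the knockout dataset and 149 to 237 CPM in the knockdown dataset, and Krt8, Krt18 and Krt19 were also abundant. Epcam was listed in neither dataset. Cldn7 was not listed in the knockdown dataset, and in the knockout dataset 4 of the 5 listed epithelial markers reached 1 CPM in a library. Levels of the 2 datasets, which were normalized apart, were not compared.

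Taking the 8 genes together, no member was called in FAM3C KO, in LIFR KO or between the knockouts by limma. Of all genes, 0.309%, 6.47% and 8.28% were called in these comparisons. At unadjusted p under 0.05 were 1, 2 and 3 of the 7 tested members, beside 1286, 4503 and 3693 of all 12621 genes tested. Of the 7 tested members, the groups did not overlap for 3 in FAM3C KO (Lifr, Il6st and Lif) and 1 in LIFR KO (Il6ra). Between the knockouts they did not overlap for 2 (Lif and Il6ra). Over all genes tested the shares were 22.7%, 17.2% and 22.8%. Osmr, under the filter and not among these, was also higher in every shPCBP1 line than in every knockout clone, at few reads. FAM3C KO and LIFR KO were compared with the same 4 shPCBP1 lines. The median difference of all genes in LIFR KO, -0.16, became -0.01 after median-ratio rescaling of the libraries. Relative to it, Jak2 stood higher (0.68 after rescaling) and Il6ra lower (-0.32), while Il6st and Lif stood near it.

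In the knockdown dataset the 6 tested members with reads in both groups were called, 4 higher (Lif, Il6st, Il6ra and Jak1) and 2 lower (Jak2 and Il11ra1) in shPCBP1. This is to be read against 80.1% of all genes called and 89.0% whose 2 against 2 libraries did not overlap. Lifr, the other tested member, passed the filter only through its shPCBP1 libraries and so had to differ. The differences of the 6 lay between -0.75 and 0.57 on the log2 scale. Changes as large as that of Jak2 were seen in 21.9% of the 11384 genes tested, as large as that of Lif in 31.9% and as large as that of Il6st in 37.9%. An exact permutation test of 2 against 2 libraries cannot go below p = 0.333. Beside these values, the 7 mesenchymal markers summed to 535 and 556 CPM in the controls and 1312 and 1347 CPM in shPCBP1, and the 4 listed epithelial markers to 2916 to 2970 and 2766 to 2823 CPM. Leukocyte markers summed to at most 1.76 CPM in this dataset, and to 4.46 to 10.9 CPM in the knockout dataset, where 2 of the 4 were listed. Such sums are carried by the most abundant markers, and the part of these markers in the results was not tested.

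**Figure D1:**
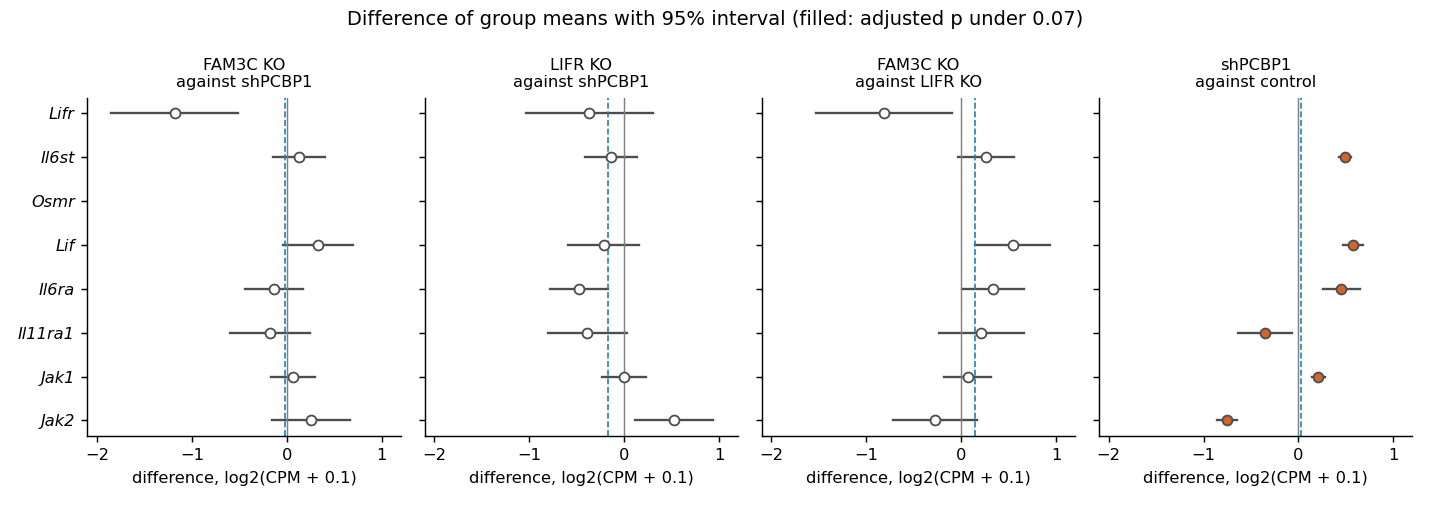
Difference of group means on the log2(CPM + 0.1) scale with its 95% interval for each tested member in the 4 comparisons; filled points are called at an adjusted p under 0.07, and the dashed line is the median over all genes. Lifr in FAM3C KO lies farthest from 0 in the knockout dataset (-1.18) without being called; Lifr in the knockdown is left out because its controls had no reads, and Osmr because it was under the filter.

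Among the shPCBP1 lines, Lifr was measured at 28.4 CPM in the unaltered line and 25.8, 34.8 and 40.2 CPM in the CT clones (1, 2, 3). The FAM3C KO clones had 13.5, 10.5 and 19.2 CPM, in the order of their numbers. Every FAM3C KO clone was below every shPCBP1 line, and the means were 14.4 ± 4.40 CPM (SD, n = 3) and 32.3 ± 6.48 CPM (SD, n = 4). The difference was -1.18 on the log2 scale (standard error 0.302, 95% interval -1.85 to -0.51), a 2.27-fold lower level, and limma's adjusted p of 0.175 missed the threshold of 0.07. A change of this size or larger in either direction was seen in 2.91% of the 12621 genes tested. The exact permutation test, two-sided, gave p = 0.0286, the smallest that 3 against 4 samples allow, and 0.0857 when adjusted over the 3 comparisons of Lifr in this dataset. With FAM3C KO and shPCBP1 fitted without the LIFR KO libraries the difference was again -1.18 but limma's adjusted p was 0.0203, in a fit that called 1048 genes against 39. The 7 mesenchymal markers summed to 2073 to 2221 CPM in FAM3C KO and 1773 to 2024 CPM in shPCBP1, with no overlap, and the 5 listed epithelial markers to 2001 to 3024 and 2466 to 3166 CPM. A sum is carried by its most abundant markers and does not show the direction of each. Twist1, which is among the mesenchymal markers, is reported by the paper to fall after knockout of FAM3C or LIFR. The part of the markers in the result was not tested. In bulk RNA, fewer cells with the transcript and less transcript per cell cannot be told apart.

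In LIFR KO clones 1 to 3 Lifr stood at 34.9, 29.3 and 14.6 CPM. The shPCBP1 range took in clones 1 and 2, and clone 3 fell below it. The mean was 26.3 ± 10.5 CPM (SD, n = 3), and the difference from shPCBP1 was -0.37 (standard error 0.302, 95% interval -1.04 to 0.30, adjusted p = 0.384 by limma). It was 0.14 with clone 1 alone and 0.0088 without clone 3, so the direction rests on clone 3. The exact permutation test, two-sided, gave p = 0.457. Between the knockouts, the means on the log2 scale differed by -0.81 (FAM3C KO minus LIFR KO, adjusted p = 0.137 by limma), with LIFR KO clone 3 inside the range of the FAM3C KO clones. Without clone 3 this difference was -1.19 (adjusted p = 0.0203 by limma), and with clone 1 alone, a single library, it was -1.32 (adjusted p = 0.0499 with the spread of the other groups).

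The double KO had the lowest level of Lifr among the 11 libraries, 4.36 CPM or 92 implied reads, against 262 to 498 reads in the FAM3C KO clones and 454 to 1207 in the shPCBP1 lines. This is a single library and has no replicate check. The order of the groups by mean was shPCBP1, LIFR KO, FAM3C KO and the double KO. Of the neighbours in that order, shPCBP1 and LIFR KO overlapped, LIFR KO and FAM3C KO overlapped through clone 3, and the double KO lay below all 3 FAM3C KO clones.

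**Figure D2:**
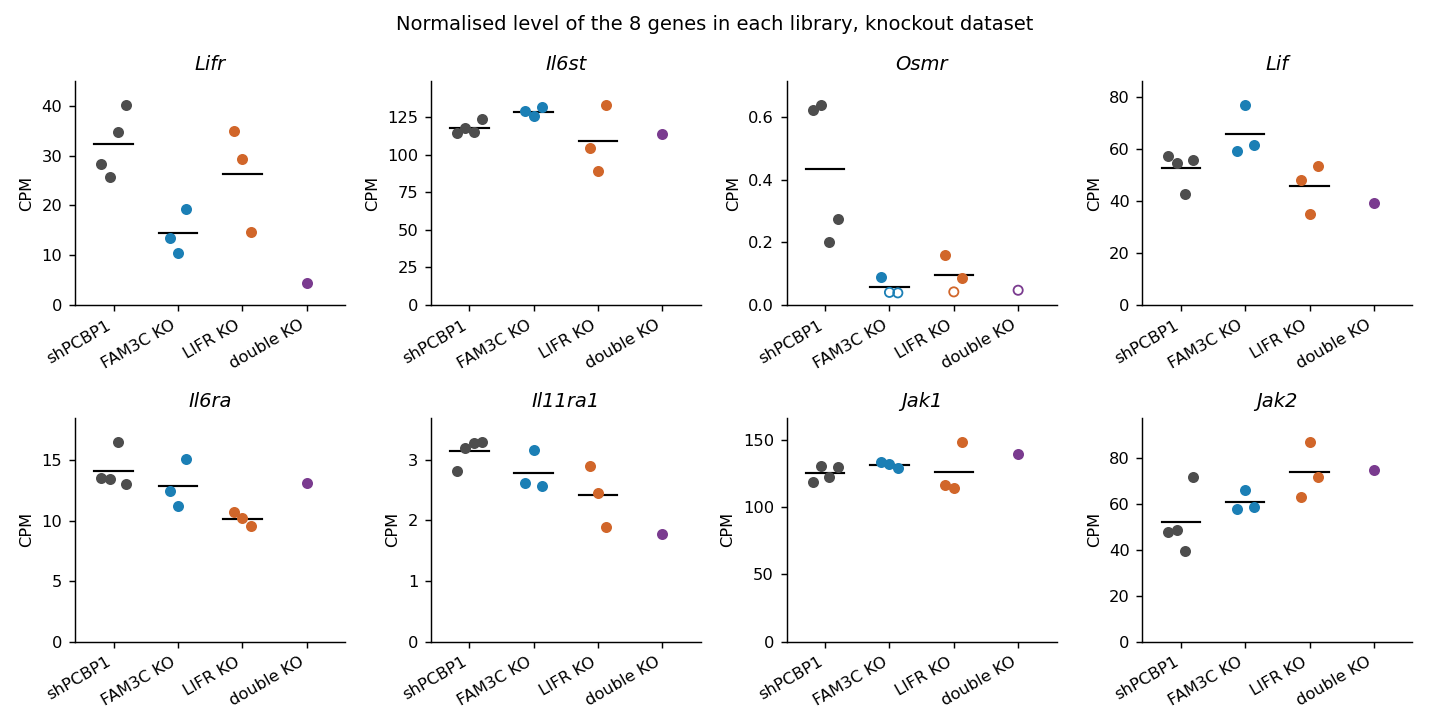
CPM of each of the 8 genes in each of the 11 libraries of the knockout dataset, on linear axes that start at 0. Points are libraries, open points are values at the lowest value of the library (no reads) and bars are group means. Lifr is lower in each of the 3 FAM3C KO clones (10.5 to 19.2 CPM) than in each of the 4 shPCBP1 lines (25.8 to 40.2 CPM), and Osmr is at most 0.640 CPM in every library.

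Both control libraries of the knockdown dataset list Lifr at their lowest value, which stands for no reads. The shPCBP1 libraries had 2.94 and 2.40 CPM. These values are worth about 164 and 130 reads. No fold is given because the controls are listed at 0 reads, and no test, since the gene passed the filter only through the shPCBP1 libraries.

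The other targeted genes were measured beside Lifr. Pcbp1, the target of the shRNA, stood at 287 and 312 CPM in the control libraries and at 14.1 and 14.2 CPM in the shPCBP1 libraries of the knockdown dataset, a log2 difference of -4.39 (adjusted p = 5.23e-14 by limma). In the knockout dataset, which holds no library without the shRNA, it stood at 32.9 to 37.1 CPM in shPCBP1, 33.6 to 36.0 CPM in FAM3C KO and 39.5, 22.5 and 19.9 CPM in the 3 LIFR KO clones. Fam3c, which encodes a secreted protein also known as ILEI, stood at 26.4, 33.9 and 42.9 CPM in FAM3C KO clones 1 to 3 and at 47.0 to 59.4 CPM in the shPCBP1 lines, with no overlap (log2 difference -0.66, adjusted p = 0.232 by limma). It stood at 50.0, 70.1 and 44.5 CPM in the 3 LIFR KO clones and at 42.3 CPM in the double KO. Between the control and shPCBP1 libraries of the knockdown dataset Fam3c fell from 25.0 and 26.6 CPM to 20.9 and 19.6 CPM (log2 difference -0.35, adjusted p = 6.26e-05 by limma).

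Osmr, the partner of gp130 for oncostatin M, was the scarcest of the 8 genes in every library of the knockout dataset. The unaltered shPCBP1 line had 0.624 CPM and the CT clones (1, 2, 3) 0.640, 0.202 and 0.275 CPM, which is 9, 29, 4 and 7 reads. In FAM3C KO it stood at 0.0886 CPM in clone 1, 1 read, and at no reads in clones 2 and 3. In LIFR KO clones 1 to 3 it had 2 reads, no reads and 1 read, and in the double KO no reads. The shPCBP1 lines were above every knockout library, at counts so low that sampling alone moves them. Without the filter on low values, limma gave an adjusted p of 0.140 for FAM3C KO and 0.0805 for LIFR KO. Osmr also had no reads in the controls of the knockdown dataset, and 2 and 1 reads in its shPCBP1 libraries. Osm, the gene of its ligand, was under the filter in the knockdown dataset and was not listed in the knockout dataset.

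Il6st, the shared gp130 chain, varied little among the shPCBP1 lines (114, 118, 115 and 124 CPM, a coefficient of variation of 3.71% against a median of 9.21% over all genes tested). It stood at 129, 126 and 132 CPM in FAM3C KO clones 1 to 3, each above every shPCBP1 line, but the difference was 0.13 (95% interval -0.15 to 0.40, adjusted p = 0.849 by limma). In LIFR KO clones 1 to 3 it stood at 105, 89.1 and 133 CPM, on either side of the shPCBP1 range (difference -0.13, 95% interval -0.41 to 0.14, adjusted p = 0.439). The knockdown raised it from 59.9 and 58.7 CPM to 84.5 and 82.3 CPM, a log2 difference of 0.49 (standard error 0.028, adjusted p = 3.02e-08 by limma).

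The chains of the LIF receptor were set side by side per length, as CPM per kb of merged exons. Lifr stood at 22.5% to 33.3% of Il6st in the 4 shPCBP1 lines of the knockout dataset and at 8.59% to 14.98% in the 3 FAM3C KO clones, with no overlap. In LIFR KO clones 1 to 3 it was 34.4%, 33.9% and 11.3%, and in the double KO 3.94%. In the 2 shPCBP1 libraries of the knockdown dataset it was 3.58% and 3.01%. A ratio within a library does not depend on how the library was scaled, but it does on the lengths given to the genes.

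**Figure D3:**
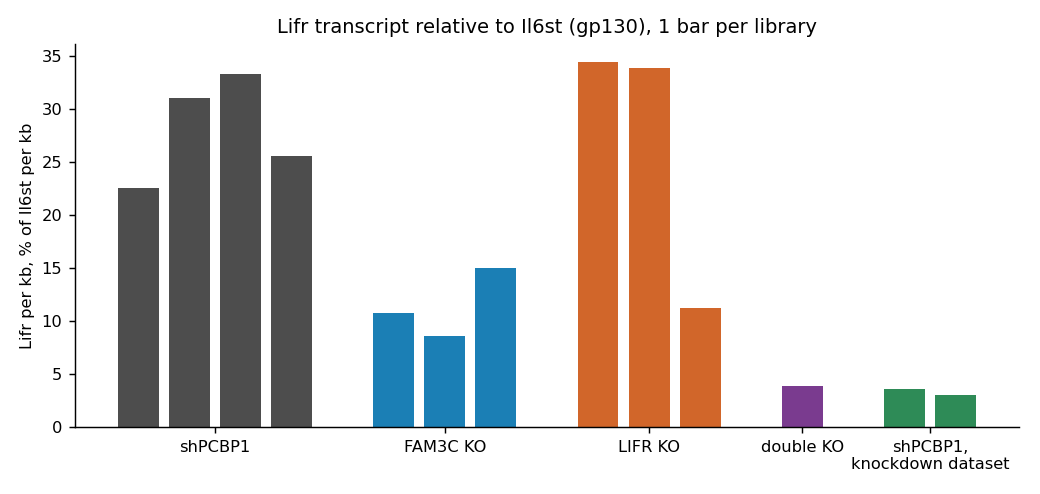
Lifr per kb of exons as a percentage of Il6st per kb of exons, 1 bar per library, grouped by condition, on an axis that starts at 0. The FAM3C KO bars (8.59% to 14.98%) are shorter than every shPCBP1 bar of the same dataset (22.5% to 33.3%), and the double KO is at 3.94%; the controls of the knockdown dataset, with no Lifr reads, are not drawn.

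Lif, the ligand, was as abundant per length as gp130 or more so in most libraries, at 94.4% to 127% of Il6st per kb in the shPCBP1 lines. The shPCBP1 lines had 57.1, 54.7, 42.7 and 55.7 CPM of it, against 59.2, 76.9 and 61.6 CPM in the 3 FAM3C KO clones, each above every shPCBP1 line (difference 0.33, 95% interval -0.04 to 0.69, adjusted p = 0.556 by limma). In LIFR KO it stood at 48.2, 35.1 and 53.6 CPM, overlapping with shPCBP1 (difference -0.22, adjusted p = 0.354), and at 39.3 CPM in the double KO. Between the knockouts Lif differed by 0.54 (FAM3C KO minus LIFR KO, 95% interval 0.15 to 0.94, adjusted p = 0.0912 by limma), with every FAM3C KO clone above every LIFR KO clone. After knockdown of PCBP1 it rose from 23.2 and 21.1 CPM to 33.3 and 32.7 CPM (difference 0.57, adjusted p = 8.04e-07 by limma).

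Among the 13 ligands and soluble partners of the family, 5 passed the filter in each dataset. Beside Lif and Fam3c they included Il11, which encodes IL-11. Il11 stood at 0.124 and 0.170 CPM in the controls of the knockdown dataset and at 6.36 and 6.62 CPM in its shPCBP1 libraries. It passed the filter only through the shPCBP1 libraries and so had to differ, and no test is given. Its values in the knockout dataset were picked for description after they were seen. It stood at 0.928 to 4.49 CPM in the shPCBP1 lines, 2.77 to 4.92 CPM in FAM3C KO, 31.4, 23.5 and 1.501 CPM in LIFR KO (1, 2, 3) and 2.44 CPM with both genes knocked out. LIFR KO clones 1 and 2 lay above all other libraries and clone 3 did not, and limma's adjusted p was 0.101 for the 3 clones and 0.0368 for clone 1 alone, a single library judged by the spread of the other groups. No ligand of the list was called in any comparison of the knockout dataset. Of all genes, 0.309% were called in FAM3C KO, 6.47% in LIFR KO and 8.28% between the knockouts. The median differences of the list were 0.21 in FAM3C KO and 0.01 in LIFR KO, against medians over all genes of -0.01 and -0.16. In the knockdown dataset 3 were called higher, Il11 among them, and 2 lower, with a median of 0.12 against 0.02 over all genes, of which 80.1% were called.

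Il6ra, the IL-6 receptor, stood at 13.6, 13.5, 16.5 and 13.0 CPM in the shPCBP1 lines and at 12.5, 11.2 and 15.1 CPM in FAM3C KO clones 1 to 3, which overlapped (difference -0.14, 95% interval -0.44 to 0.17, adjusted p = 0.861 by limma). In LIFR KO it stood at 10.7, 10.2 and 9.56 CPM, each below every shPCBP1 line. The difference was -0.47 (95% interval -0.78 to -0.16, adjusted p = 0.0761 by limma), just above the threshold, and -0.39 with clone 1 alone (adjusted p = 0.440). The double KO, at 13.2 CPM, lay within the range of shPCBP1. Il6ra rose with the knockdown, from 5.52 and 5.45 CPM to 8.10 and 7.02 CPM (difference 0.45, adjusted p = 0.00077 by limma).

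Il11ra1, the IL-11 receptor, stood at 2.81, 3.20, 3.27 and 3.30 CPM in the shPCBP1 lines, 2.61, 3.16 and 2.57 CPM in FAM3C KO and 2.90, 2.45 and 1.89 CPM in LIFR KO, and at 1.78 CPM in the double KO. The groups overlapped, with differences of -0.17 in FAM3C KO (adjusted p = 0.875 by limma) and -0.39 in LIFR KO (adjusted p = 0.165). With clone 1 alone as LIFR KO the difference was -0.11. Il11ra1 was the only receptor of the 8 genes that fell in the knockdown dataset, from 2.37 and 2.30 CPM to 1.95 and 1.68 CPM (difference -0.35, 95% interval -0.63 to -0.07, adjusted p = 0.0274 by limma). Without control replicate 1 or shPCBP1 replicate 2 it was no longer called (adjusted p = 0.0765 and 0.132). The genome holds the near-identical copy Il11ra2, listed at 0.141 to 0.805 CPM in the knockout dataset and at most 0.0925 CPM in the knockdown dataset, and if reads were shared out between the copies the values of Il11ra1 are uncertain.

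Jak1, a kinase bound to gp130, had the smallest difference of the 7 tested members in each of the 4 comparisons. It stood at 118 to 131 CPM in the 4 shPCBP1 lines, 129 to 133 CPM in FAM3C KO, 116, 114 and 148 CPM in the 3 LIFR KO clones and 139 CPM in the double KO. The differences were 0.07 in FAM3C KO (95% interval -0.16 to 0.30) and 0.001 in LIFR KO (95% interval -0.23 to 0.23), with adjusted p of 0.916 and 0.995 by limma. With the knockdown it rose from 39.0 and 39.5 CPM to 45.6 and 45.3 CPM (difference 0.21, adjusted p = 9.27e-05).

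Jak2 had 48.0 CPM in the unaltered line, 48.5, 39.7 and 71.9 CPM in the CT clones (1, 2, 3), and 57.6, 66.0 and 58.5 CPM in FAM3C KO, which overlapped (difference 0.25, adjusted p = 0.754 by limma). In LIFR KO clones 1 to 3 it stood at 62.9, 87.1 and 71.6 CPM, above the shPCBP1 lines other than CT clone 3 (difference 0.53, 95% interval 0.11 to 0.94, adjusted p = 0.0948). The difference was 0.31 with clone 1 alone (adjusted p = 0.703). After knockdown of PCBP1, Jak2 went the other way to Jak1 and fell from 28.3 and 28.5 CPM to 16.2 and 17.5 CPM (difference -0.75, 95% interval -0.86 to -0.65, adjusted p = 8.29e-08 by limma).

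In LIFR KO and in the knockdown dataset most genes around Jak2 differed in the same direction as Jak2. Jak2 (ENSMUSG00000024789) starts at 29251828 on chromosome 19 of GRCm38, and the genes within 5 Mb of each of the 8 genes were looked up by the starts that each dataset lists. In LIFR KO the median difference of the 39 tested neighbours of Jak2 was 0.44, against 0.53 for Jak2 and -0.16 over all genes. Within 1 Mb, a window chosen after the values were seen, 16 of 16 neighbours were above 0, with a median of 0.64. By clone, the 39 neighbours stood 0.62, 0.60 and 0.20 above the shPCBP1 mean in LIFR KO clones 1 to 3. Jak2 itself stood 0.31, 0.78 and 0.49 above it, so the closeness is one of group values and not of each clone. In the knockdown dataset the median of the 37 neighbours was -0.65, against -0.75 for Jak2 and 0.02 over all genes, and 14 of 15 within 1 Mb were below 0. In FAM3C KO the median of the neighbours was -0.02, beside 0.25 for Jak2. In the double KO, a single library, the 39 neighbours stood 0.07 above the shPCBP1 mean, beside 0.56 for Jak2.

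In FAM3C KO Lifr lay below its neighbours. There the 33 tested genes within 5 Mb had a median difference of 0.06, none of them was called, and each stood above Lifr, the lowest being at -0.90. In LIFR KO the median of the same genes was 0.30, beside -0.37 for Lifr, and 4 of them (Fyb, Gdnf, Selenop and Amacr, named after their values were seen) lay below Lifr. In the knockdown dataset the 29 neighbours had a median of 0.43 and 28 of them were called, where 80.1% of all genes were called. Lifr is not set against them there, since its controls had no reads. For the other genes the medians of the neighbours in the knockdown dataset were 0.11 for Il6st, 0.41 for Lif, -0.20 for Il6ra, 0.21 for Il11ra1 and 0.25 for Jak1, against differences of 0.49, 0.57, 0.45, -0.35 and 0.21.

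**Figure D4:**
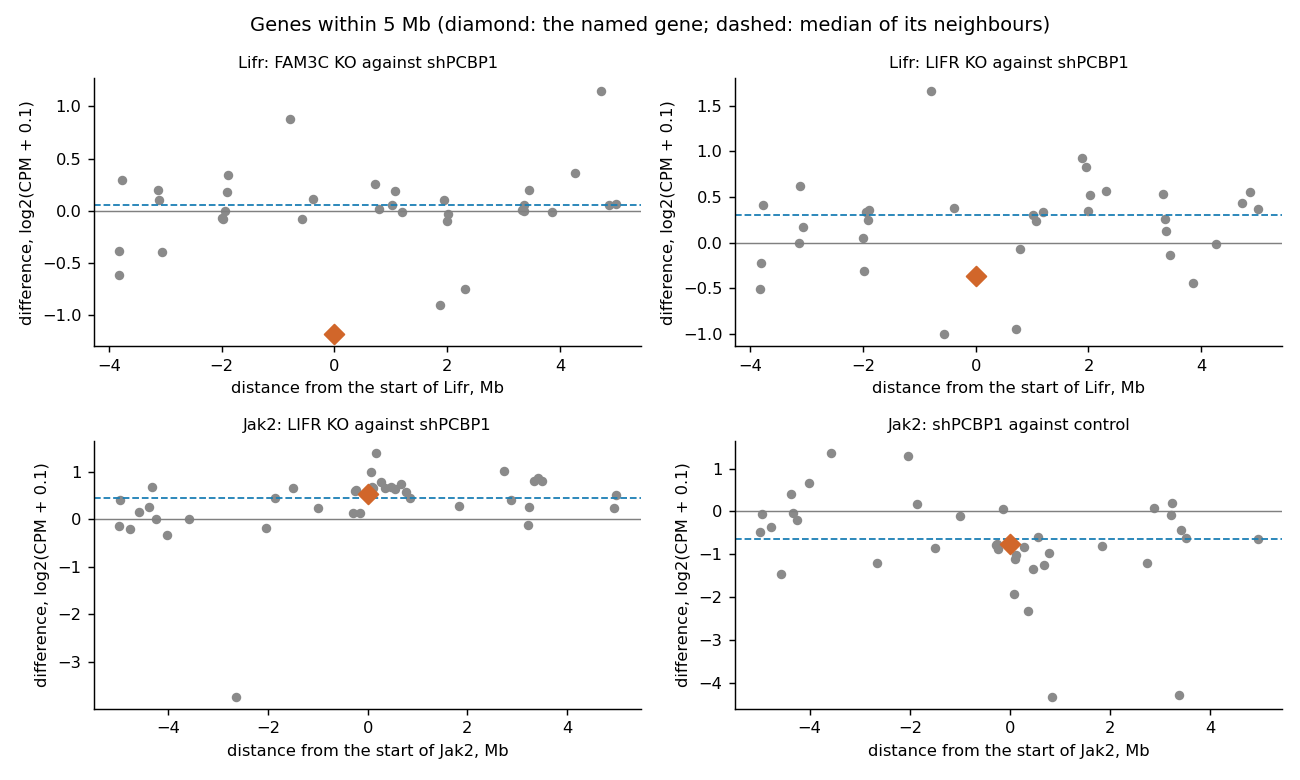
Difference of group means on the log2(CPM + 0.1) scale for genes within 5 Mb of Lifr (top) and Jak2 (bottom), against the distance from the start of the named gene in Mb. Grey points are neighbouring genes, the diamond is the named gene and the dashed line is the median of the neighbours. Lifr lies below its neighbours in FAM3C KO (-1.18 against a median of 0.06), whereas Jak2 lies close to the median of its own in LIFR KO (0.53 against 0.44) and in the knockdown (-0.75 against -0.65).

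**Figure D5:**
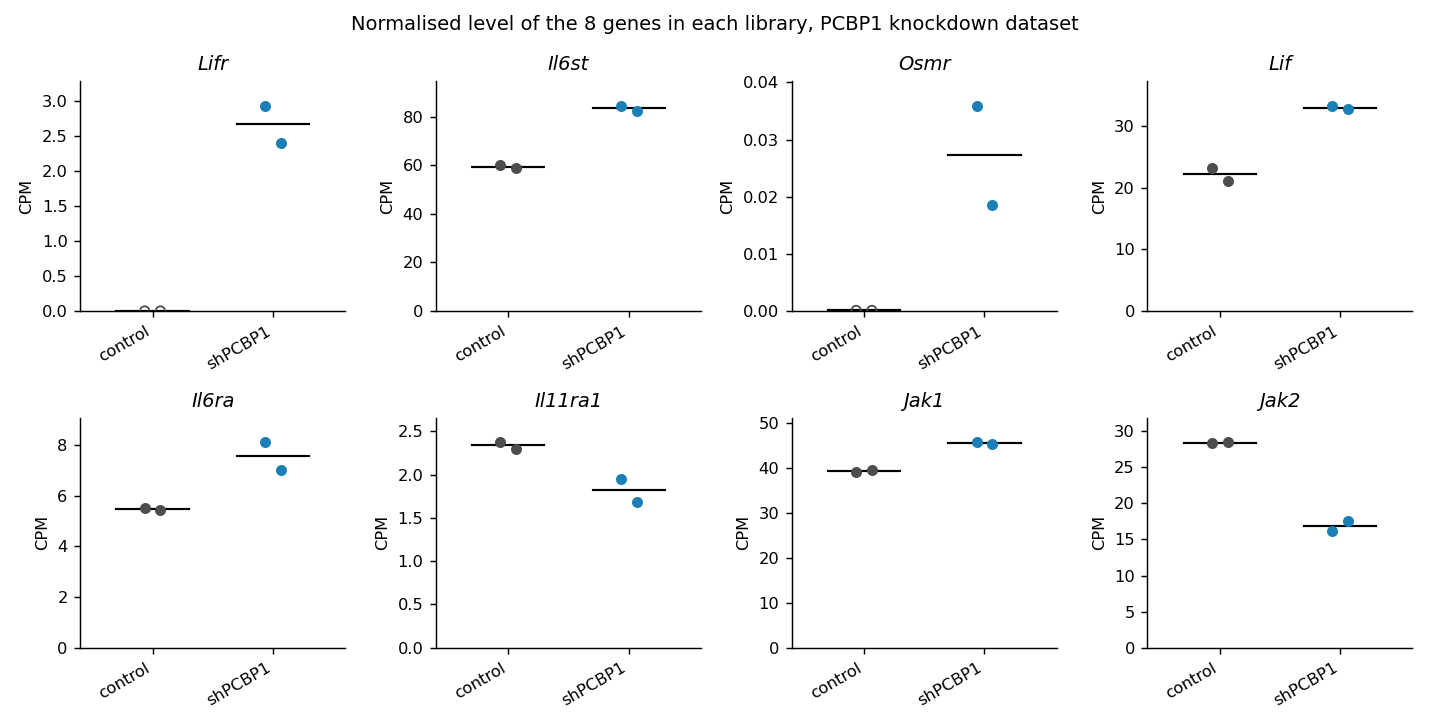
CPM of each of the 8 genes in the 2 control and 2 shPCBP1 libraries of the knockdown dataset, on linear axes that start at 0. Points are libraries, open points are libraries at the lowest value and bars are group means. Lifr and Osmr have no reads in the controls, and Jak2 and Il11ra1 are lower in both shPCBP1 libraries than in both controls.

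Ordered per length, Jak1 was the most abundant of the 8 genes in the shPCBP1 lines of the knockout dataset (17.3 ± 0.831 CPM per kb, SD, n = 4). Lif, Il6st and Jak2 followed at 12.1, 10.6 and 10.3 CPM per kb and overlapped among lines. Lifr (2.99), Il6ra (1.64), Il11ra1 (0.703) and Osmr (0.0359 CPM per kb) came next, and these 4 did not overlap with each other. In FAM3C KO Lifr was at 1.34 and Il6ra at 1.49 CPM per kb, and the pair overlapped. In the controls of the knockdown dataset, Jak2, Jak1, Il6st and Lif lay between 5.09 and 5.65 CPM per kb.

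The kinases, STATs and adaptors of the pathway were 16 genes that all passed the filter. In FAM3C KO, where 0.309% of all genes were called, none of them was called (median difference -0.06, against -0.01 over all genes). In LIFR KO, where 6.47% of all genes were called, 1 was called lower (median -0.28 against -0.16). This was Shc1, an adaptor that couples receptors to Ras, at 100 to 133 CPM in shPCBP1 and 91.6, 72.0 and 71.4 CPM in LIFR KO (difference -0.54, adjusted p = 0.0595 by limma). With clone 1 alone the difference of Shc1 was -0.30. Of the 16, in the knockdown dataset, 6 were called higher and 7 lower, with a median of -0.01 beside 0.02 over all genes, of which 80.1% were called. Of the 8 receptors of the family, 4 passed the filter in each dataset, none was called in the knockouts and 3 were called higher and 1 lower in the knockdown, where 80.1% of all genes were called and Lifr, among the 3, had to differ.

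Of the 15 inhibitors of the pathway, none was called in FAM3C KO, where 0.309% of all genes were called (median difference 0.03 against -0.01). In LIFR KO, where 6.47% of all genes were called, 1 was called higher and 1 lower (median -0.20 against -0.16). Socs1, which blocks JAK kinases, ranged from 1.51 to 2.50 CPM among the shPCBP1 lines and fell to 1.39, 0.707 and 0.600 CPM in LIFR KO (difference -1.12, adjusted p = 0.0592 by limma). Socs2 stood at 13.0 to 18.9 CPM in shPCBP1 and rose to 31.9, 32.9 and 19.5 CPM in LIFR KO (difference 0.80, adjusted p = 0.0668). With clone 1 alone the differences of Socs1 and Socs2 were -0.46 and 1.02. Between the knockouts Socs1 and Ptpn6, a phosphatase, were higher in FAM3C KO than in LIFR KO (differences 1.48 and 1.56, adjusted p = 0.0387 and 0.0432), and Pias2 was lower. There 8.28% of all genes were called, and the median of the 15 was 0.35 against 0.14. After knockdown, 5 inhibitors were called higher and 5 lower, with a median of -0.04, against 80.1% of all genes called. Cish, an inhibitor raised by STAT5, rose from 4.58 and 4.88 CPM to a mean of 16.5 ± 0.642 CPM (SD, n = 2) (difference 1.78, adjusted p = 1.72e-09).

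Of 20 genes known to respond to STAT3, 19 passed the filter. None was called in FAM3C KO (median 0.01), where 0.309% of all genes were called. In LIFR KO 4 were called lower, where 6.47% of all genes were called (701 of 816 lower), and the median was -0.63 against -0.16 over all genes. Klf4, a transcription factor, fell from 73.7 to 112 CPM in shPCBP1 to 38.6, 34.2 and 50.2 CPM in LIFR KO (difference -1.19, adjusted p = 0.0236 by limma). The kinase gene Pim3 ranged from 129 to 174 CPM in shPCBP1 and fell to 120, 52.7 and 53.9 CPM in LIFR KO (difference -1.08, adjusted p = 0.0556), and Cebpd, a transcription factor, at 5.65 to 8.05 and 4.57, 4.46 and 3.56 CPM (difference -0.67, adjusted p = 0.0543). Vegfa, an angiogenic factor, was the other. With clone 1 alone Pim3, Cebpd and Vegfa differed by -0.30, -0.54 and -0.27, and after correction for GC content by -0.31, -0.38 and -0.37. Over all genes the medians were then -0.01 and 0.04. Between the knockouts Vegfa, Klf4, Pim1 and Cebpd were higher in FAM3C KO (differences 1.07, 0.98, 0.83 and 0.68, adjusted p = 0.0314 to 0.0545 by limma). Of all genes, 8.28% were called there (862 of 1045 higher).

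These calls rest in part on the LIFR KO libraries that stood apart, and the 5 listed epithelial markers summed to 1212 to 2092 CPM in LIFR KO against 2466 to 3166 CPM in shPCBP1. The 7 mesenchymal markers summed to 1282 to 1935 CPM in LIFR KO against 1773 to 2024 CPM, and the part of either list was not tested. With clone 1 alone as LIFR KO, where the spread comes from the other groups only, 2 genes of the lists were called against shPCBP1, Klf4 (difference -1.26, adjusted p = 0.0363 by limma) and Il11, and after correction for GC content none was, Klf4 being at -0.75 (adjusted p = 0.121). Of the 7 list genes called between the knockouts, Klf4 and Vegfa were called with clone 1 alone, and Vegfa after the GC correction. In the knockdown dataset 14 of the STAT3 response genes were called higher and 4 lower, against 4792 higher and 4331 lower of all 11384 genes (80.1% called), with a median of 0.42 against 0.02 over all genes. The largest changes were in Tfcp2l1 (difference 1.89), Cebpd (1.65) and Fos (-1.45), all transcription factors.

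The genes most like Lifr over the 11 libraries of the knockout dataset were Zfp235, Trappc11 and Rtbdn. Their Pearson correlations with Lifr on the log2 scale were 0.95, 0.94 and 0.94 (Spearman 0.91, 0.91 and 0.88), the highest of 12620 genes, and 0.84, 0.88 and 0.88 without FAM3C KO clone 2 and the double KO, the libraries farthest from the median of Lifr. The libraries share clones and library preparation, and the genes were picked as the highest of many, so the correlations are a description. Trappc11 ranged only from 33.4 to 42.4 CPM. Among the other members, r with Lifr was 0.68 for Il11ra1, 0.54 for Osmr, 0.13 for Il6ra, -0.07 for Lif, -0.29 for Il6st, -0.33 for Jak2 and -0.65 for Jak1, with a median of 0.22 over all genes.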

How the data were processed

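RNA-Seq was performed on rRNA-depleted total RNA with a directional kit, as 150 bp paired-end reads. Per the labels and the study's methods, the authors trimmed and aligned the reads to GRCm38 (mm10) with Bowtie2 in Partek Flow, quantified annotated genes and deposited CPM for each library, where no reads are written as the lowest value of the library (first dataset) or as 0.0001 (second dataset). The second dataset's deposited group means in CPM and their ratio (fold change) were not used. 0 columns belonged to samples outside the series. Near the low end, a share of 0.905 to 0.928 (first dataset) and 0.938 to 0.944 (second) of values were whole multiples of 1 read within 0.1 of a read, too few to recover counts, so no count test was run; depth is the implied total and limits low genes.

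Values were transformed to log2(CPM + 0.1), the 12621 and 11384 genes averaging 0.5 CPM or more entered the fits and group means were fitted with limma 3.58.1 (R 4.3.3, mean-variance trend). The 3 groups of the first dataset shared a fit, without the double KO. The threshold of 0.07 is the study's. Exact permutation tests of Lifr, two-sided, used mean log2 values. The 8 genes, the pathway lists and the alternatives were chosen with earlier results of these data known. Named list genes were, per comparison, up to 6 with the largest change among those called, without overlap and at 1 CPM or more in a group. Alternatives were median-ratio rescaling, a pseudocount of 1 CPM, other filters, a threshold of 0.05, the replicate block, leaving out each library, 2 groups alone, a GC correction (loess, span 0.3), LIFR KO clone 1 alone and, chosen after seeing the data, subtraction of the lowest value. Gene starts of the second dataset equalled GENCODE M21 (GRCm38) for 14269 of 14795 genes and those of the first for 302 of 13870, so printed coordinates are from M21. The fits were tested on simulated data. Python 3.11.15 and matplotlib 3.10.9 were also used.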

Additional observations from a re-analysis of the deposited data

Results flagged for a closer look

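Among the 4 shPCBP1 lines, Il6ra in CT clone 2 stood at 16.5 CPM, far from the others at 13.0 to 13.6 CPM, with a gap of 0.847 of the group's range, above Dixon's 95% critical value. Chance alone gives about 1 such value in 20 groups, and 8 genes were checked. In the double KO, which enters no test, Jak1 stood at 139 CPM and Jak2 at 74.9 CPM, both above the highest shPCBP1 line (131 and 71.9 CPM).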

How the results depend on the processing

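Of 508 values recomputed under an alternative, 473 were taken as unchanged. Of these, 411 kept their direction and their side of the threshold. The other 62 were counts of members called that were equal or close to the count reported, 6 and 7 being taken as alike. The count of members called was 0 in FAM3C KO, but 1 (Lifr) with the 2 groups fitted alone; leaving out 1 library gave 0 to 3 in LIFR KO (3 without clone 1: Il6ra, Il11ra1 and Jak2) and 0 to 3 between the knockouts (2 without clone 1, 3 without clone 3: Lifr, Il6st and Lif), and LIFR KO clone 1 alone, 1 library assumed to vary like the other groups, gave 2 there (Lifr and Il6st). In the knockdown the count, Lifr included, was 6 or 7 when 1 library was left out and the lone library of its arm was assumed to vary like the other group. Values that changed sign in LIFR KO were Lifr (0.14 with clone 1 alone, -0.62 to 0.0088 leaving out 1 library), Il6st (0.018 after median-ratio rescaling, -0.29 to 0.0019), Lif (0.13 with the GC correction and 0.17 with the replicate block added), Il11ra1 (0.057 with the GC correction) and Jak1 (-0.026 with the replicate block, -0.11 with clone 1 alone, -0.12 to 0.069). Between the knockouts they were Il11ra1 (-0.17 with the GC correction, with or without the block, and -0.062 with clone 1 alone) and Jak1 (-0.065 after rescaling, -0.00082 to 0.19). The cause was not tested.

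Over all genes, calls in FAM3C KO ranged from 3 to 1048 (39 as reported). They ranged from 3 to 7234 (816) in LIFR KO and from 0 to 6673 (1045) between the knockouts. The highest counts came with the 2 groups alone in FAM3C KO, and without LIFR KO clone 1 in LIFR KO and between the knockouts. The lowest came without CT clone 1 in FAM3C KO and with the GC correction and replicate block in LIFR KO. Between the knockouts the lowest came with the replicate block or the 2 groups alone. The reason was not tested. Clone and replicate numbers are shared by label only: with the replicate block 0, 0, 0 and 7 members were called in the 4 comparisons, and same-numbered libraries' deviations correlated at -0.18 to 0.15. Depth limits Osmr, at no more than 29 reads, and Lifr in the knockdown.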
